A study of Mus musculus with 4 samples.

Results

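Histone deacetylases remove acetyl groups from lysines of histones and of other proteins. The zinc-dependent enzymes fall into class I (Hdac1, Hdac2, Hdac3 and Hdac8), class IIa (Hdac4, Hdac5, Hdac7 and Hdac9), class IIb (Hdac6 and Hdac10) and class IV (Hdac11). Class I enzymes are mostly nuclear and work inside corepressor complexes, whereas class IIa enzymes have weak activity of their own and shuttle between nucleus and cytoplasm, held in the cytoplasm by 14-3-3 proteins after phosphorylation. The genes described here are the 10 family members other than Hdac6, out of 37074 gene names on the array, chosen by name with all of their probes. The array carries 24 probes for them, 3 for Hdac1, 4 for Hdac4, 6 for Hdac9, 2 each for Hdac3, Hdac8, Hdac10 and Hdac11, and 1 each for Hdac2, Hdac5 and Hdac7.

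The cells were GC-1, an established mouse line of spermatogonial origin, profiled on 4 one-colour arrays. In 1 group (2 arrays) the cells received a plasmid with murine Hdac6 behind a CMV promoter and a myc/DDK tag. In the other (2 arrays) they received the empty vector. Both were cultured for 48 h after transfection, so the control cells were transfected too. The labels do not say whether the 2 arrays of a group came from separate cultures, so the p-values speak for the variation among these 4 arrays alone, part or all of which may be technical. The RNA came from whole transfected cultures, in which fewer cells expressing a gene and less of its RNA per cell cannot be told apart.

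A level here is the log2 processed signal of a probe minus that of the 75th percentile probe of its array, where the percentile was a signal of 815 and 453 on the Hdac6 vector arrays and 666 and 693 on the empty vector arrays. The single Hdac6 probe, the check of the transfected gene, read 2.62 and 3.24 with the Hdac6 vector, against 3.31 and 2.83 with the empty vector (0.909-fold, 95% interval 0.578 to 1.43, limma adjusted p = 1.00), so on this probe the Hdac6 vector libraries did not stand above the others. The probe holds the letters AATAAA, the usual polyadenylation signal, at base 34 of its 60 bases. No source used here says whether the bases it reads are in the vector's insert, so it leaves the overexpression unchecked, and every direction below is that of the libraries labelled Hdac6 vector. Of 13 spermatogonia markers 7 were well above background on all 4 arrays, among them Itga6 (mean level 5.01), Uchl1 (3.88) and Nanos3 (-1.54). Kit, Ret and Thy1 were not well above background on any array, nor were the germ cell markers Dazl, Mael and Tex101. The remaining germ cell marker examined, Ddx4, was dim (mean level -6.18) and was well above background on 2 arrays. Of 10 Sertoli cell markers 7 were detected on all 4 arrays, among them Wt1 (mean level 6.86), while Amh and Cldn11 were detected on none. Detection on all 4 arrays also held for 6 of 6 peritubular myoid cell, 8 of 9 macrophage and leukocyte, and 3 of 7 Leydig cell markers. The counts therefore do not single out a cell type. Hdac6 vector 1 and empty vector 2 were the closest pair, with 0.604% of 32602 probes at least 2-fold apart, against 3.82% to 6.85% for the other pairs.

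All 10 deacetylase genes had at least 1 probe well above background on all 4 arrays, by the scanner software's flag. In all, 18 of the 24 probes met this, 1 Hdac9 probe was detected on 2 arrays, and 5 probes (4 of Hdac9 and 1 of Hdac11) on none. Signals of different probes depend on probe sequence and on where the probe sits in the transcript, so the order below is an order of probe signals and not of transcript numbers. By its brightest probe, Hdac7 led with a mean level of 6.27 over the 4 arrays, followed by Hdac5 (5.36) and Hdac1 (5.13). A middle group held Hdac10 (1.69), Hdac4 (1.48) and Hdac3 (1.43), and below it stood Hdac8 (-1.34), Hdac2 (-1.48), Hdac11 (-2.64) and Hdac9 (-4.93). The ranges over the 4 arrays overlapped between Hdac5 and Hdac1, between Hdac10, Hdac4 and Hdac3, and between Hdac8 and Hdac2. Elsewhere the ranges of neighbours in the order did not overlap. The gap between them ran from 0.27 log2 units, between the lowest Hdac2 array and the highest Hdac11 array, to 2.86 between Hdac1 and Hdac10. Hdac6, by its own probe (mean 3.0), would stand between Hdac1 and Hdac10. The order of the 10 genes was the same in both groups except that Hdac4 stood below Hdac3 and Hdac10 with the Hdac6 vector and above both with the empty vector.

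**Figure D1:**
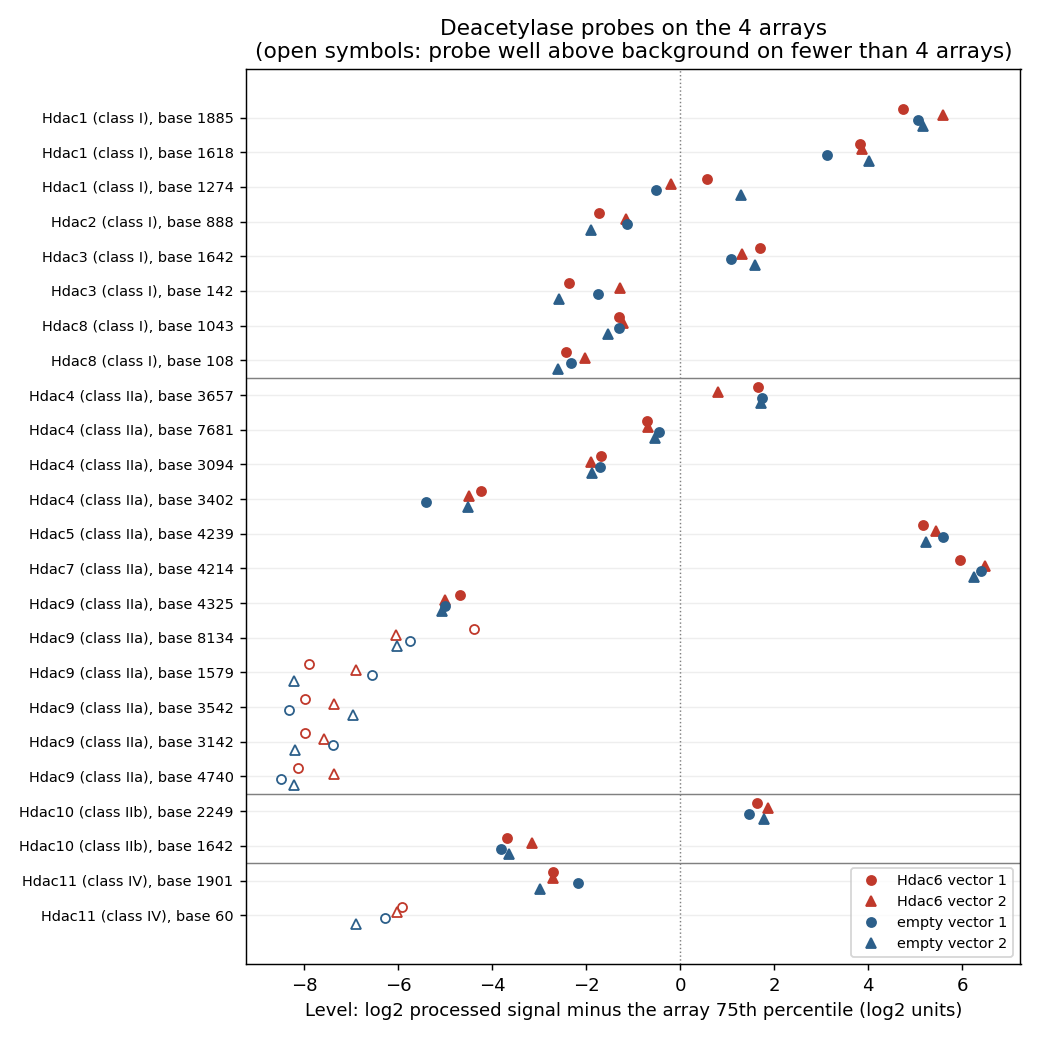
Level of each of the 24 deacetylase probes (rows, named by gene, class and the base of the transcript record where the probe starts) on the 4 arrays, in log2 units relative to the array's 75th percentile. Hdac7, Hdac5 and the Hdac1 probe at base 1885 stand at the right, and 5 of the 6 Hdac9 probes and 1 Hdac11 probe have open symbols for detection on fewer than 4 arrays.

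Where 2 probes of a gene were designed on the same transcript record, the one nearer the 3′ end was nearly always the brighter. Among the deacetylases this held for 8 of 9 such pairs (median difference 2.50 log2 units), and for all 5 pairs in which both probes were tested. It was also the rule over the array, at 80.3% of 8966 pairs on coding RefSeq records and 86.1% of 6337 pairs with both probes tested. The labelling started from an oligo-dT primer at the poly(A) tail. The deacetylase share is therefore to be read against that background, and levels of upstream and 3′ probes of different genes are not on one footing. Probes of 5 genes are shown here so that their values below can be placed in the transcripts. They are the upstream probe of its record for Hdac1 and Hdac10, the downstream one for Hdac8, the only probe of Hdac2 and the undetected probe of Hdac11. Each has at least 1 reading frame without a stop codon on the transcript's strand, all 60 bases hybridise, and no part is set in capitals. Of all 56605 probes on the array only 20.3% lack such a frame, so having one does not place a probe in coding sequence.
Hdac1, base 1274 of its record, chr4:129194655-129194714 (mm9, minus strand): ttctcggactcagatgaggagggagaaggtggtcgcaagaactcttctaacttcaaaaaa
Hdac2, base 888, chr10:36713455-36713589 (mm9, plus strand): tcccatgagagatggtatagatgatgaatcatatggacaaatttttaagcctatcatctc
Hdac8, base 1043, chrX:99503070-99597969 (mm9, minus strand): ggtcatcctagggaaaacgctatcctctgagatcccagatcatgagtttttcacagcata
Hdac10, base 1642, chr15:88955201-88955767 (mm9, minus strand): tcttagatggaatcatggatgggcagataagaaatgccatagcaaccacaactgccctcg
Hdac11, base 60 of a cDNA record, chr6:91116270-91118852 (mm9, plus strand): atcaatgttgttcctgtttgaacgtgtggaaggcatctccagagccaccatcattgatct
The Hdac2, Hdac8, Hdac10 and Hdac11 probes cover 135, 94900, 567 and 2583 genomic bases with 60 bases of sequence, so each crosses at least 1 splice junction. No run of 20 bases was shared between a deacetylase probe and any other probe on the array (0 cases), Hdac6 and the other family members included.

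**Figure D2:**
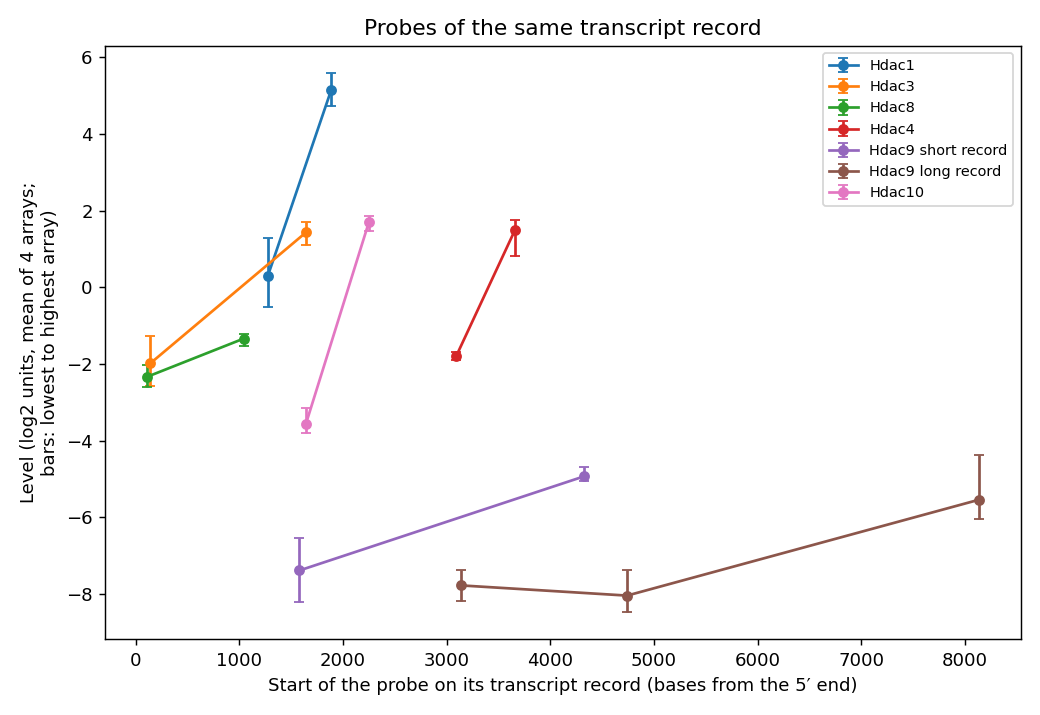
Mean level over the 4 arrays (vertical axis, log2 units, bars from the lowest to the highest array) against the base of the transcript record at which the probe starts, for records with more than 1 deacetylase probe. Lines join probes of the same record and run upward toward the 3′ end for Hdac1, Hdac3, Hdac8, Hdac4, Hdac10 and the Hdac9 short record.

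Among the class I genes, which supply the catalytic subunits of the SIN3, NuRD and CoREST complexes (Hdac1 and Hdac2) and of the NCoR complex (Hdac3), no probe changed with the Hdac6 vector. Over the whole array 4 of 35215 tested probes passed (0.0114%, limma, Benjamini-Hochberg adjusted p under 0.05), or 2 of 23496 genes with 1 probe per gene (0.00851%), and of the 18 tested deacetylase probes 0 did. At an unadjusted p under 0.05, which 1.83% of all tested probes reached, the deacetylase count was likewise 0.

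The 3′ Hdac1 probe (chr4:129193374-129193433, mm9, minus strand) read 4.73 and 5.59 with the Hdac6 vector, against 5.05 and 5.17 with the empty vector. The empty vector arrays lay between the Hdac6 vector arrays. The fold was 1.04 (95% interval 0.643 to 1.68, limma adjusted p = 1.00). The probe at base 1274 read 0.57 and -0.20 with the Hdac6 vector, against -0.51 and 1.29 with the empty vector. With a range of 1.80 log2 units over the 4 arrays it was the most variable of the 18 tested probes, and its extremes were both empty vector arrays. Its fold was 0.866 (0.384 to 1.95), and its log2 fold change was -1.11 when empty vector 1 was left out and 0.69 when empty vector 2 was. The remaining Hdac1 probe, at base 1618 of a predicted record, read 3.82 and 3.87 with the Hdac6 vector, against 3.13 and 4.02 with the empty vector (1.21-fold, 0.748 to 1.95). The Hdac1 probes thus spread from 0.29 to 5.13 in mean level, and the 3 gave estimates on both sides of no change.

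Hdac2, the close paralogue of Hdac1, has a single probe, which starts at base 888 of its record. It read -1.73 and -1.16 with the Hdac6 vector, against -1.12 and -1.90 with the empty vector. Hdac6 vector 1 and empty vector 2 were low, the other arrays were high, and the groups overlapped in full. The fold was 1.04 (0.597 to 1.83, limma adjusted p = 1.00). Its place below Hdac1 in the order is a difference between probe signals and was not tested as one between transcripts.

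Hdac3, whose activity depends on the NCoR corepressor complex, lies on chromosome 18. Its 3′ probe read 1.70 and 1.32 with the Hdac6 vector, against 1.09 and 1.60 with the empty vector (1.12-fold, 0.730 to 1.72). Its upstream probe, at base 142, read -2.36 and -1.27 with the Hdac6 vector, against -1.74 and -2.57 with the empty vector (1.26-fold, 0.646 to 2.47). On the 3′ probe Hdac6 vector 1 and empty vector 2 were the higher arrays and on the upstream probe the lower ones, so the difference between the probes was 4.06 and 2.59 log2 units with the Hdac6 vector, against 2.83 and 4.16 with the empty vector. The upstream Hdac8 probe followed the same order within each group as the upstream Hdac3 probe, at -2.43 and -2.02 with the Hdac6 vector, against -2.31 and -2.60 with the empty vector (1.17-fold, 0.716 to 1.92).

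Hdac8, an X-linked class I enzyme that acts on cohesin and needs no large corepressor complex, was the steadiest of the class. The probe at base 1043 read -1.30 and -1.22 with the Hdac6 vector, against -1.30 and -1.54 with the empty vector, a range of 0.33 over the 4 arrays. Hdac6 vector 1 and empty vector 1 read alike, empty vector 2 was the lowest, and the groups overlapped. The fold was 1.12 (0.723 to 1.73, limma adjusted p = 1.00).

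By brightest probe all 4 class I genes had a fitted value above 0 (median log2 fold change 0.11, against 0.00 over 23496 tested genes, 50.7% of which were above 0). None passed, and only Hdac3 and Hdac8 stayed above 0 with normexp background correction, median scaling or the authors' value table, under which Hdac1 and Hdac2 were below 0.

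Class IIa held both the brightest and the dimmest members. Hdac7, known for its part in endothelial cells and thymocytes, was measured by a single probe (chr15:97623208-97623267, mm9, minus strand) at 5.95 and 6.49 with the Hdac6 vector, against 6.39 and 6.26 with the empty vector. This placed it above 97.9% of probes or more on each array. The fold was 0.929 (0.609 to 1.42). Hdac5, a repressor of MEF2 factors in muscle and other cells, read 5.16 and 5.44 with the Hdac6 vector, against 5.59 and 5.23 with the empty vector (0.928-fold, 0.624 to 1.38). Its only probe (chr11:102057076-102057135, mm9, minus strand) holds the letters ATTAAA, a variant polyadenylation signal, at base 49, as do 3.86% of all probes on the array when the printed strand is searched. For both genes the groups overlapped and the limma adjusted p was 1.00.

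Hdac4, a repressor of MEF2 factors in muscle, bone and nerve cells, gave the largest fitted differences of the family, and its 4 probes did not point the same way. The brightest (base 3657, chr1:93829554-93829613, mm9, minus strand) read 1.66 and 0.81 with the Hdac6 vector, against 1.74 and 1.71 with the empty vector. Hdac6 vector 2 stood low, while Hdac6 vector 1 lay just below both empty vector arrays. The fold was 0.712 (0.442 to 1.15, limma adjusted p = 1.00), and its log2 fold change of -0.49 became -0.07 without Hdac6 vector 2, -0.92 without Hdac6 vector 1, -0.02 as a mean over all Hdac4 probes and -0.11 in the authors' value table. The probe at base 3094 of the same record read -1.68 and -1.89 with the Hdac6 vector, against -1.70 and -1.88 with the empty vector. It had the smallest range of the tested probes, 0.21, and a fold of 1.00 (0.637 to 1.57). A probe near the end of a longer record (base 7681, chr1:93825715-93825774) read -0.71 and -0.68 with the Hdac6 vector, against -0.44 and -0.54 with the empty vector (0.864-fold, 0.577 to 1.30). The dim probe of another record (base 3402, chr1:93885742-93885801) read -4.23 and -4.48 with the Hdac6 vector, against -5.41 and -4.51 with the empty vector (1.52-fold, 0.817 to 2.84). In that case empty vector 1 was the low array, and without it the log2 fold change was 0.16 in place of 0.61.

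Of the 18 tested deacetylase probes 3 had groups that did not overlap, all of them Hdac4 probes, 2 lower and 1 higher with the Hdac6 vector. Groups did not overlap for 25% of all tested probes, and 3 of 18 is no larger a share than that.

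Hdac9 encodes both a long form with the deacetylase domain and a short form, known as MITR, which lacks that domain and still binds MEF2 factors. A probe from the inner part of each of the records is shown here, because the values of these probes differ from those at the 3′ ends. The long and the short record were told apart by the files' own annotation, which calls the short one variant 2.
Hdac9, base 3142 of the long record, chr12:34792084-34792143 (mm9, minus strand): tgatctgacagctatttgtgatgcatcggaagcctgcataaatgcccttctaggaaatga
Hdac9, base 1579 of the short record, chr12:35074257-35074316 (mm9, minus strand): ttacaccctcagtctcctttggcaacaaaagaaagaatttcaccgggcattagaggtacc
Neither was well above background on any array. The first read -7.98 and -7.57 with the Hdac6 vector, against -7.38 and -8.19 with the empty vector. The other read -7.89 and -6.90 with the Hdac6 vector, against -6.55 and -8.22 with the empty vector. Values this low carry no order.

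The only Hdac9 probe detected on all 4 arrays lies near the 3′ end of the short record (base 4325, chr12:35056405-35056464, mm9, minus strand). It read -4.69 and -5.00 with the Hdac6 vector, against -4.99 and -5.06 with the empty vector (1.13-fold, 0.661 to 1.95, limma adjusted p = 1.00). Its signal lay above 41.9% to 45.2% of probes on the 4 arrays. The probe at the 3′ end of the long record (base 8134, chr12:34732448-34732507) holds an AATAAA polyadenylation signal at base 43, as do 9.77% of all probes. It was well above background on Hdac6 vector 1 (-4.38) and empty vector 1 (-5.74), and not on Hdac6 vector 2 (-6.04) or empty vector 2 (-6.02). It was therefore not tested. The other Hdac9 probes, at base 4740 of the long record and on a cDNA that the files annotate as MEF2-interacting transcription repressor, lay between -8.48 and -6.96 and were not detected. On both records the detected signal came from the probe nearest the 3′ end. Which Hdac9 forms the cells made was not tested.

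Hdac10, the other class IIb enzyme beside Hdac6 and a polyamine deacetylase, showed the widest gap between probes of one record. Its probe at base 2249 (chr15:88953840-88953899, mm9, minus strand) read 1.64 and 1.87 with the Hdac6 vector, against 1.46 and 1.79 with the empty vector (1.09-fold, 0.742 to 1.61). The probe at base 1642 read -3.68 and -3.16 with the Hdac6 vector, against -3.80 and -3.63 with the empty vector (1.23-fold, 0.721 to 2.09). The difference between them was 5.31 and 5.03 log2 units with the Hdac6 vector, against 5.27 and 5.42 with the empty vector, and so was alike on all 4 arrays. The groups overlapped on both probes.

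Hdac11, the only class IV enzyme and a remover of fatty acyl groups, read -2.71 and -2.71 with the Hdac6 vector, against -2.17 and -2.98 with the empty vector (chr6:91124085-91124144, mm9, plus strand). Both Hdac6 vector arrays lay between the empty vector arrays, and the fold was 0.909 (0.522 to 1.58, limma adjusted p = 1.00). The Hdac11 probe near the start of a cDNA record read -5.91 and -6.03 with the Hdac6 vector, against -6.27 and -6.89 with the empty vector. It was not well above background on any array and was not tested.

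Over the 10 genes, 6 had a fitted log2 fold change above 0 and 4 below it, with a median of 0.06 against 0.00 over all tested genes. The fold estimates of the brightest probes ran from 0.712 (Hdac4) to 1.13 (Hdac9). Over all 18 tested probes the highest estimate was 1.52 (Hdac4, base 3402). Over the same probes the 95% intervals reached from 0.384-fold (Hdac1, base 1274) to 2.84-fold (Hdac4, base 3402). The upper ends of the 95% intervals of the brightest probes lay between 1.15-fold (Hdac4) and 1.95-fold (Hdac9), and the lower ends between 0.442-fold (Hdac4) and 0.742-fold (Hdac10). These bounds give the folds that the 4 arrays leave possible for each probe. They do not say how small a change the test could have detected with 2 arrays per group. The median range of a tested deacetylase probe over the 4 arrays was 0.62 log2 units, close to the 0.58 of all tested probes. Between Hdac6 vector 1 and empty vector 2 the deacetylase probes differed by a median of 0.198, against 0.345 between the Hdac6 vector arrays and 0.307 between the empty vector arrays.

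**Figure D3:**
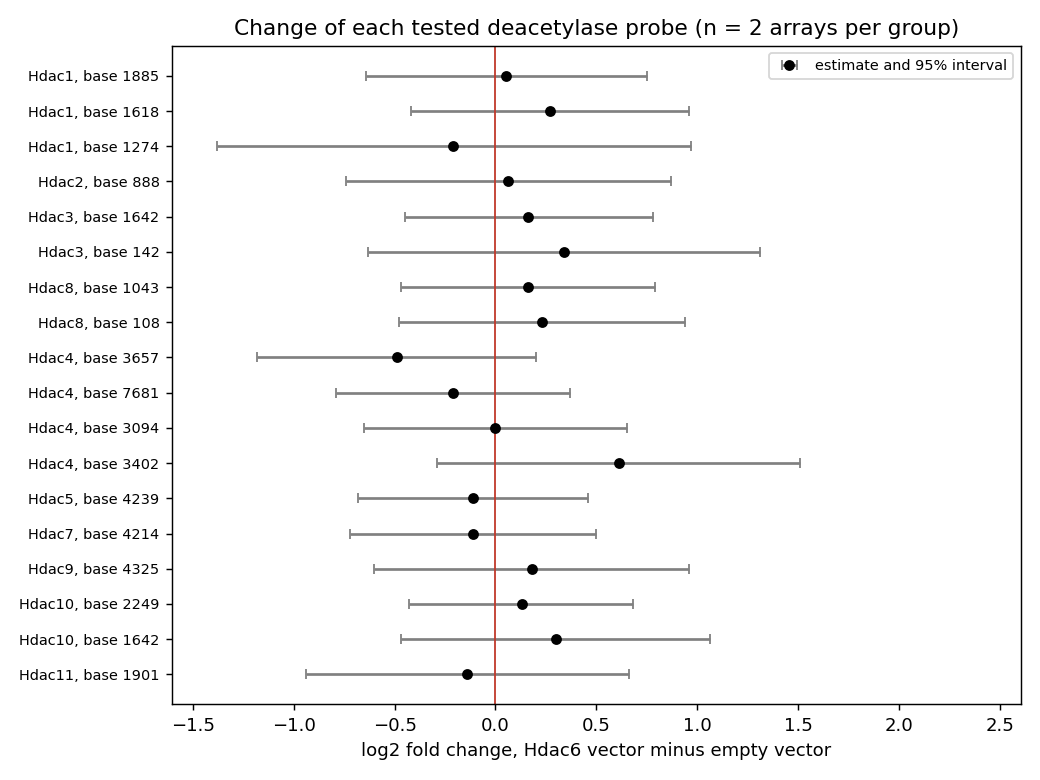
Log2 fold change of each of the 18 tested deacetylase probes (Hdac6 vector minus empty vector, limma) with its 95% interval, n = 2 arrays per group. Every interval includes 0, and the 4 Hdac4 probes run from -0.49 to 0.61.

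Genes related to the deacetylases were examined next, 79 tested genes from 10 lists with 1 probe per gene. The lists hold sirtuins, subunits of corepressor complexes, class IIa partners and kinases, and MEF2 target genes. They are called partner genes below. Of the 79 genes 28 were above 0 and 51 below (median log2 fold change -0.07), where 50.7% of all tested genes were above 0. The split moved with the scaling. With spike-in scaling 10 of 16 SIN3, 10 of 12 NuRD and 7 of 7 14-3-3 genes were above 0, and with median scaling 5, 5 and 2. The CoREST and kinase lists stayed mostly below 0 with spike-in scaling (2 of 8 and 2 of 12 above 0). No gene passed (0, limma adjusted p under 0.05; 0 also at an unadjusted p under 0.05, against 1.83% of all probes). In the NAD-dependent class III enzymes, the sirtuins, 3 of 7 genes were above 0 and 4 below (median log2 fold change -0.02). The brightest was the nucleolar Sirt7 at 4.47 and 4.78 with the Hdac6 vector, against 4.82 and 4.57 with the empty vector. The lowest ratio was that of Sirt1, a deacetylase of p53 and other factors (0.758-fold), and the highest that of Sirt6, a chromatin enzyme (1.15-fold).

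Among subunits of the class I complexes, 6 of 16 SIN3 genes were above 0 (median -0.06), from the SIN3-associated Brms1l (0.852-fold) to the histone chaperone Rbbp4 (1.25-fold), with Sap18 the brightest (mean level 7.77). Of 12 NuRD genes 7 were above 0 (median 0.01), from Mta3 (0.880-fold) to Mta1 (1.42-fold), both scaffold subunits, and Cdk2ap1 was the brightest (6.86). Of 8 CoREST genes 1 was above 0 (median -0.26). That median was -0.03 without empty vector 1 (3 of 8 above 0), -0.51 without empty vector 2, -0.15 with spike-in scaling, -0.07 as the mean over all probes of a gene (4 of 8) and -0.04 in the authors' value table (3 of 8). Rcor1, which bridges Hdac1 and Hdac2 to the demethylase Kdm1a, had the lowest ratio (0.787-fold), and Kdm1a itself, the brightest, read 5.30 and 5.49 with the Hdac6 vector, against 5.67 and 5.61 with the empty vector (0.842-fold, 0.582 to 1.22). The highest CoREST value, that of Rcor3 (1.07-fold), came with an interval of 0.466 to 2.46. In the MiDAC and MIER complexes 3 of 6 genes were above 0, from Mideas (0.826-fold) to Trerf1 (1.52-fold), with Dnttip1 the brightest (4.87). Trerf1 was dim (mean level -4.4, interval 0.9 to 2.56). Of 5 NCoR complex genes 1 was above 0 (median -0.18, and -0.27 without empty vector 1 or -0.05 without empty vector 2), with Ncor1 at 0.811-fold and Tbl1xr1 at 1.01-fold.

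Class IIa enzymes are controlled by kinases that send them out of the nucleus, by 14-3-3 proteins and by the MEF2 factors they repress. All 12 kinase genes had a fitted value below 0 (median log2 fold change -0.19), whereas 50.7% of all tested genes had one above 0, and none of the 12 passed. The lowest was the calcium/calmodulin-dependent kinase gene Camk4, at -2.82 and -2.50 with the Hdac6 vector, against -2.00 and -2.56 with the empty vector (0.768-fold, 0.458 to 1.29). The brightest, Camk2g, read 4.23 and 4.31 with the Hdac6 vector, against 4.88 and 4.29 with the empty vector (0.803-fold). Empty vector 1 was the high array in both, and in the nearly level Mark2 (0.993-fold) it was the low one. Groups did not overlap for 2 of the 12 kinase genes, against 25% of all probes. The count was 7 of 16 for SIN3, 3 of 12 for NuRD, 3 of 8 for CoREST and 2 of 3 for MEF2 genes. It was 2 of 6 for MiDAC and MIER, 1 of 5 for NCoR and 1 of 7 for 14-3-3 genes. For the 7 sirtuins and the 5 MEF2 target genes it was 0. These shares were not tested. The kinase list's median was -0.10 without empty vector 1 and -0.30 without empty vector 2, with 2 of 12 above 0 in each case. It was -0.09 with spike-in scaling, -0.30 as the mean over all probes of a gene and -0.38 in the authors' value table. Of 3 tested MEF2 genes, Mef2a was at 1.01-fold, Mef2b at 0.789-fold and the brightest, Mef2d, at 0.881-fold, and Mef2c was not tested. Of 7 14-3-3 genes 5 were above 0 (median 0.06), from Ywhag (0.975-fold) to Ywhaz (1.1-fold), with Ywhah the brightest. Among 5 tested MEF2 target genes 2 were above 0. The brightest, Klf2, was at 0.997-fold, Nr4a1 at 0.852-fold and Myog at 1.22-fold, and Ckm was not tested. Myog was dim (mean level -5.45, interval 0.686 to 2.16). It was well above background on only 1 of the 2 Hdac6 vector arrays.

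**Figure D4:**
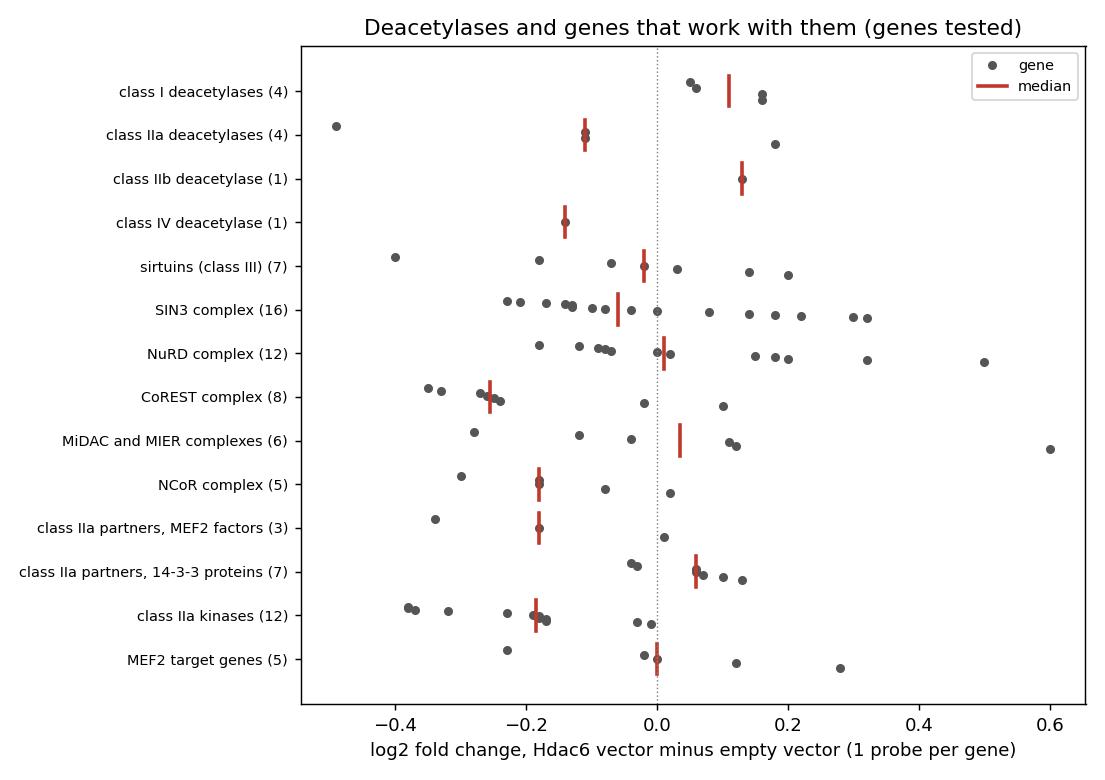
Log2 fold change (Hdac6 vector minus empty vector, 1 probe per gene) of the deacetylases and of the genes related to them, by list. The number of tested genes is in brackets and the median is a bar. The 12 class IIa kinase genes all lie left of 0, and the class IIa deacetylases run from -0.49 (Hdac4) to 0.18 (Hdac9).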

How the data were processed

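Per the file headers, the scanner files were made with Feature Extraction 11.5.1.1 (protocol GE1_1105_Oct12), and the deposited processed intensity is background-subtracted and detrended, not normalized between arrays. Agilent Feature Extraction is also the tool given in the submitters' processing notes. All 4 arrays shared 1 slide and 1 scan day. The authors also deposited a table of log2 values, 1 row per gene name. For 25183 names with 1 probe it equals log2 processed intensity plus a constant per array in at least 99.78% of rows (tolerance 0.01), which settles scale, centring and direction. Its column medians were -3.71 and -3.68 for the Hdac6 vector and -3.78 and -3.67 for the empty vector. It served as an alternative.

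Flagged spots were left out, the 10 spots of each of 300 repeated probes averaged on the log2 scale, and each array's 75th percentile over its 56605 probes subtracted. No deacetylase spot was flagged or saturated (0). A probe was tested if well above background on both arrays of at least 1 group, which left 35215 probes for 23496 gene names. The brightest tested probe stands for a gene. The fit was limma 3.58.1 in R 4.3.3 (lmFit, eBayes with a trend), two-sided, and p-values were adjusted by Benjamini-Hochberg across every tested probe, 2 residual degrees of freedom and 7.07 from the shared spread. Functions were tested on simulated data. With 2 arrays against 2, an exact permutation test cannot reach the threshold and was not run. Positions and gene names are the files' own (mm9), and the files do not annotate UTRs. The number of arrays limits the precision. Alternatives changed the background correction, scaling, dim-probe filter, spread model, block, probe summary and arrays used.

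Members, lists, rules for named genes and alternatives were chosen with earlier results of these data known. Named are all members with every probe and, from each list, the brightest gene and those with the highest and lowest ratio. One gene so chosen is not reported here. Same-numbered arrays did not deviate together (r = -0.384 over 32602 probes, and 0.384 when numbers were crossed), so the numbers were not taken as pairs.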

Additional observations from a re-analysis of the deposited data

How the results depend on the processing

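No deacetylase probe and no partner gene passed (0 of each, limma adjusted p under 0.05) under any of the 16 alternatives run. Counts at an unadjusted p under 0.05 (limma) are given only for alternatives that kept all 4 arrays. With an array left out, 1 group has a single array, so only effect sizes are given for the deacetylases. Among the alternatives with all 4 arrays, 1 of the 18 tested deacetylase probes reached it, with the crossed block (Hdac4, base 3657). Of all 35215 tested probes 1888 did so in that setting, so the 1 probe does not stand out. The log2 fold change of the same Hdac4 probe was -0.92 without Hdac6 vector 1. That of Hdac1, base 1274, was -1.11 without empty vector 1. The number of changed probes over the array, 4, became 29 with normexp, 2 with quantile normalization or without a trend, 0 with median scaling or with the percentile over probes detected on all arrays, 22 with the replicate block, 19 in the authors' value table, and 0 to 302 with an array left out (302 without empty vector 2). The crossed block, chosen after seeing the data, gave 15. The causes were not tested. Of the 16, 5 (both blocks, the trend and the filters) leave every deacetylase estimate as it is by construction, and in the other 11 the signs of Hdac4, Hdac8 and Hdac9 were as reported. Signs turned for Hdac1 and Hdac2 with normexp (-0.004 and -0.01), median scaling (-0.04 and -0.03) and the value table (-0.04 and -0.02). With an array left out, log2 fold changes ran from -0.37 to 0.48 for Hdac1, -0.33 to 0.46 for Hdac2, -0.09 to 0.42 for Hdac3, -0.28 to 0.07 for Hdac5, -0.38 to 0.16 for Hdac7, -0.04 to 0.29 for Hdac10 and -0.54 to 0.27 for Hdac11. With arrays of the same number paired (replicate block), 0 deacetylase probes passed. Median scaling shifted the median of all probes by -0.09 and spike-in scaling by 0.1. The share of all probes above 0 was 53.2%, but 38.8% with median scaling and 68.1% with spike-in scaling.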

Other observations

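For the deacetylases, Sirt5 and Sirt6, entries of the authors' value table matched means over the probes that passed the background flag on the array in question. Only for Hdac9, Hdac11 and Sirt5 does such a mean differ from one over all probes of the gene. The match is given for these genes only. Among the deacetylases the table's log2 difference departed most from the main one for Hdac4, as given above, and for Hdac9. All 4 Hdac4 probes passed on every array, so its entry is a plain mean over 4 probes. The table also lies 0.1 log2 units above the levels used here on Hdac6 vector 2, against 0.27 on each of the other arrays. The Hdac9 entry read -4.27 and -4.89 with the Hdac6 vector, against -5.10 and -4.79 with the empty vector (log2 difference 0.37, 95% interval -0.49 to 1.22), in place of 0.18 for the probe detected throughout. On the table's scale, the mean over all 6 Hdac9 probes was -6.57 and -6.60 with the Hdac6 vector, against -6.64 and -6.84 with the empty vector. The number of probes averaged was 2 and 1 with the Hdac6 vector and 2 and 1 with the empty vector. Sirt5, a mitochondrial desuccinylase chosen here after its values were seen, read 1.30 and 1.42 in the table with the Hdac6 vector, against -1.97 and 1.30 with the empty vector (log2 difference 1.70, interval -1.03 to 4.43, limma adjusted p = 1.00). Its bright probe differed little, at 1.03 and 1.32 with the Hdac6 vector, against 1.03 and 1.04 with the empty vector. Its dim probe was well above background on empty vector 1 alone (-5.50) and entered the average there.

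Of the members' brightest probes, that of Hdac4 had the widest range over the 4 arrays (0.93). Among 25417 probes detected on all arrays whose gene name is a RefSeq symbol, Hdac4 left out, the closest to it in array-to-array pattern, by the sum of absolute differences of centred levels, were those of Kdr (0.07 log2 units), D630045J12Rik (0.08) and Pax3 (0.15). Each was low on Hdac6 vector 2. With 4 arrays and so many probes this is a description of these arrays only.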
